A study of Mus musculus with 12 samples.

Results

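The genes described here were 32 genes of neutrophil granules and neutrophil maturation, listed by name and read in RNA libraries of regulatory T (Treg) cells sorted from mouse bone marrow (BM). All 32 were among the 14259 genes of the count table and all 32 passed the filter on low counts that left 13782 genes for the tests. They were ordered by stage: 4 primary granule genes, 5 early factors and markers, 12 secondary granule genes, 1 tertiary granule gene, 8 genes of the mature cell and 2 subunits of the oxidase. RNA was sequenced on day 14 in 4 groups of 3 libraries, all of strain C57BL/6. The groups were Treg cells of genotype WT from marrow without tumor (tumor-free WT), the control, and Treg cells of genotype WT, ST2-KO or Tbet-KO from marrow with tumor (tumor WT, tumor ST2-KO and tumor Tbet-KO). In all 4 groups the hosts had been lethally irradiated and had received T cell-depleted BM with donor T cells in which Treg cells were the smaller part and Foxp3- T cells the larger. The tumor was a myeloid leukemia of transferred MLL-AF9 cells, which express a fusion of Mll and carry eGFP. Treg cells were gated as CD4+CD25+ and eGFP+ (a Foxp3 reporter) for WT and ST2-KO, and as CD4+CD25+CD127- for Tbet-KO, so gate and genotype cannot be told apart in the last group.

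Neutrophils mature in the BM from granulocyte-monocyte progenitors, and they fill their granules in order. Promyelocytes express the genes of the primary granules, the peroxidase and the neutral serine proteases. Myelocytes and metamyelocytes switch to the secondary granules with lactoferrin and the cathelicidin, then to the gelatinase of the tertiary granules, and the mature cell carries calprotectin and the receptors CXCR2 and G-CSF receptor. T cells carry none of these granules.

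The promoters of the 4 primary granule genes, which had the same order of levels over the 4 groups, and those of Olfm4 and Ngp, the secondary granule genes with the largest fold change and with the highest level in counts, are printed to show which sites of myeloid factors lie near their start. RefSeq promoters of build GRCm38.p6, from 250 bases before to 50 bases after the start, were found for 28 of the 32 genes. Each line reads 5′ to 3′ in the direction of the gene, and capitals mark the matches to any of 3 motifs, searched on both strands: the C/EBP site TTGCNNAA, the PU.1 site GAGGAAGT and the Gfi1 core AAATCA. Mpo lies at chr11:87793534-87793833, Elane at chr10:79886062-79886361, Prtn3 at chr10:79879417-79879716, Olfm4 at chr14:80000052-80000351 and Ngp at chr9:110419558-110419857, all on the plus strand, and Ctsg at chr14:56102525-56102824 on the minus strand.
Mpo: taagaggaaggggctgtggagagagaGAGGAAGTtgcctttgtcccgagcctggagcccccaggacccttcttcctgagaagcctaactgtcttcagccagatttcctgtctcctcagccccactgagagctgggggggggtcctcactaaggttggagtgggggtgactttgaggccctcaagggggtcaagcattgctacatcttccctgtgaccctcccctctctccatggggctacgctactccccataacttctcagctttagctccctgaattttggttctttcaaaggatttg
Elane: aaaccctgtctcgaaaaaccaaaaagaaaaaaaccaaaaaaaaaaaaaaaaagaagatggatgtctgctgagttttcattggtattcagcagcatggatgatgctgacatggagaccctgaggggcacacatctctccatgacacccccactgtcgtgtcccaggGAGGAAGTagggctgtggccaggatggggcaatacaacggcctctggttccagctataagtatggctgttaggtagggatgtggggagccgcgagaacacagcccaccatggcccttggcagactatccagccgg
Prtn3: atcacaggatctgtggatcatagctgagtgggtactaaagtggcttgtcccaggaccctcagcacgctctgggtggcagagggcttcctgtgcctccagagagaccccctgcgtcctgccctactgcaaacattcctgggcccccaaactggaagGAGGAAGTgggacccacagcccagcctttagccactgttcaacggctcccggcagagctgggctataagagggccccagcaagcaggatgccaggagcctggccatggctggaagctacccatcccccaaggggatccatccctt
Ctsg: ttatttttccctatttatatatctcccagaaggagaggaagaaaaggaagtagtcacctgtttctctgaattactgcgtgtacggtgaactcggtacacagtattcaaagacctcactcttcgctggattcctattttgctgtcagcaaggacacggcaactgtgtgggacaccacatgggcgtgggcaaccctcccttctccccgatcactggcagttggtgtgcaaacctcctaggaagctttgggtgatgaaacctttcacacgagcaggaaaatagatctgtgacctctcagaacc
Olfm4: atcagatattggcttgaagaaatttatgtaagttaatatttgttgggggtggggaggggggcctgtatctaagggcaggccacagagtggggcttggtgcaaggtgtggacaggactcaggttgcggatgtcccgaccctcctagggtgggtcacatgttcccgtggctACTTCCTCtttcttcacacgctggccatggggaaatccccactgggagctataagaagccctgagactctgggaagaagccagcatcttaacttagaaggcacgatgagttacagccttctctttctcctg
Ngp: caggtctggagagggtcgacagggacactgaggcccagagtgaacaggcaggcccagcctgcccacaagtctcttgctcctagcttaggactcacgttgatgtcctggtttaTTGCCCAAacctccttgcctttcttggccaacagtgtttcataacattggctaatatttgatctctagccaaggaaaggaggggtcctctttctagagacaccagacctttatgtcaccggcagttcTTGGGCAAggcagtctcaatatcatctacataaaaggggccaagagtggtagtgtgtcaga
The PU.1 letters began 224 bases before the start of Mpo, 85 before that of Elane, 95 before that of Prtn3 and, on the other strand, 81 before that of Olfm4. Ngp held no PU.1 match but 2 C/EBP matches, 138 and 11 bases before its start, the second on the other strand. Ctsg held none of the 3 motifs in this window, which says only that these letters are not there. Over the 28 genes with a promoter, the C/EBP letters were in 10 (35.7%), the PU.1 letters in 8 (28.6%) and the Gfi1 letters in 4 (14.3%), against 10.8%, 3.20% and 14.0% of all 32851 promoters of the same length. All 3 early genes with a promoter (Gfi1, Ms4a3 and Fcnb) held a C/EBP match, whereas none of the 4 primary granule genes did. No matches of different motifs overlapped in these genes, and a match is a description of letters only. Elane and Prtn3 are neighbours on chromosome 10, 3072 bases apart, and Camp, Ngp and Ltf lie in this order on chromosome 9 with gaps of 570129 and 596258 bases (GENCODE M21, GRCm38).

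Libraries held 13272943 to 18042521 counts. The 32 genes took 1.62% to 2.60% of the counts of a library, and Ngp alone took 0.437% to 0.707%, against 0.0560% to 0.177% for 11 T cell genes together (among them Cd3e, Cd3d, Cd3g, Cd4, Cd2, Cd5, Cd28, Lck, Zap70 and Lat). Foxp3, the defining transcription factor of Treg cells, was present in all libraries with 980 to 1103 counts in tumor-free WT, 2382 to 2845 in tumor WT, 1296 to 1524 in the libraries labelled ST2-KO and 1598 to 1883 in those labelled Tbet-KO. Il1rl1, which encodes ST2, had 86.6 to 92.7 CPM (counts scaled by library size and TMM) in the libraries labelled ST2-KO against 123.5 to 136 in tumor WT and 74.8 to 79.0 in tumor-free WT. Tbx21, which encodes Tbet, had 13.8 to 16.1 CPM in the libraries labelled Tbet-KO, 36.2 to 41.7 in tumor WT and 12.2 to 17.5 in tumor-free WT. The transcript of the targeted gene was therefore not lost in either knockout, counts per gene do not show a deleted exon, and both groups are named by their labels. Ribosomal RNA (Rn45s) took 3.53% to 5.20% of the counts in the other 3 groups and 7.07% to 7.44% in the libraries labelled ST2-KO, and its part in the results was not tested. The libraries labelled ST2-KO and tumor WT carry the same sequencer sample numbers in the headers of the tables. Exons of 5 of the 32 genes overlap another gene in GENCODE M21. Those of Prtn3 overlap Plppr3 and those of Ncf1 overlap Gtf2ird2. Mpo and Gfi1 overlap non-coding genes on the other strand, and Olfm4 a non-coding gene on its own strand. The counting used another annotation, refGene, and is not stated to use strand. Where refGene holds both genes of a pair, their reads may not be told apart, which was not tested. In bulk RNA, more cells of a type and more RNA per cell cannot be told apart.

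The test was the quasi-likelihood test of edgeR in 1 fit of all 12 libraries. Genes with a Benjamini-Hochberg adjusted p below 0.05 were called. A log2 fold change is the first group minus the second. The biological coefficient of variation was 5.53%, so small differences passed, and no source says that the 3 libraries of a group came from separate mice, so the p-values measure the spread between these libraries. An exact permutation test of 3 against 3 libraries cannot give a p below 0.1. Every comparison shares a group with others, 3 of the 5 use the tumor WT libraries, and each is given by its own values. All levels depend on the scaling. Under an alternative that scales each library to the 11 T cell genes, the median of all genes moved by -1.35 (tumor WT against tumor-free WT), 0.95 (ST2-KO against tumor WT), -0.16 (Tbet-KO against tumor WT), -1.11 (Tbet-KO against ST2-KO) and -0.40 (ST2-KO against tumor-free WT) on the log2 scale, and its counts are given beside each comparison.

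With tumor, most neutrophil genes were higher in the WT libraries. Of the 32 genes, 29 were called higher in tumor WT than in tumor-free WT, 1 was called lower (Camp) and 2 were not called (Fcnb and Csf3r), where 29% of all tested genes were higher and 29.4% lower. The median log2 fold change of the 32 genes was 0.47, that of all tested genes 0.0037, and 5 called genes were beyond 1 (Olfm4, Ctsg, Elane, Prtn3 and Mpo) and 0 beyond -1, against 8.85% and 4.96% of all genes. With the T cell genes as the scale, only 4 of the 32 genes were higher (Olfm4, Elane, Ctsg and Prtn3) and 28 were lower, with a median of -0.88, where 2% of all genes were higher and 86% lower, so the count of lower genes was near the share of all genes.

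Between the tumor libraries labelled ST2-KO and tumor WT, 0 of the 32 genes were higher, against 23.1% of all tested genes, and 29 were lower, against 22.8%. The count of higher genes was also 0 at an unadjusted p below 0.05, with DESeq2 and with limma, and the log2 fold change was below 0 for all 32. Gfi1, Camp and Ltb4r1 were not called. The median was -0.37 against -0.0024 over all genes, and 0 genes were beyond 1 or -1, against 2.66% and 2.42% of all genes. The direction turned with the T cell genes as the scale, giving 29 higher and 0 lower, but there 84.1% of all genes rose and 0.668% fell, near the shares of the list. Against tumor-free WT, the libraries labelled ST2-KO had 11 of the 32 genes higher, where the share over all genes was 15%, and 10 lower, where it was 17%, with a median of 0.038 against -0.016. The 4 called genes beyond 1 there were Olfm4, Ctsg, Elane and Prtn3 and 0 were beyond -1, against 3.79% and 0.951% of all genes. On the T cell scale 4 rose and 25 fell, against 4.63% and 63.5% of all genes.

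In the libraries labelled Tbet-KO the primary granule and early genes moved 1 way against tumor WT. Secondary granule genes, genes of the mature cell and oxidase subunits moved both ways. Against tumor WT 16 genes were higher, 13 lower and 3 not called (Camp, Pglyrp1 and Itgb2l), where the shares over all genes were 18.1% higher and 20.6% lower, and the median was 0.13 against 0.0053. All 9 primary granule and early genes were among the 16, and so were 4 of 12 secondary granule genes, 2 of 8 genes of the mature cell and 1 of 2 oxidase subunits. Beyond 1 were 2 called genes (Olfm4 and Prtn3) and beyond -1 were 0, against 2.09% and 5.24% of all genes. With the T cell genes as the scale, 14 rose and 15 fell, against 7.58% and 36.6% of all genes. Against the libraries labelled ST2-KO, 25 genes were higher and 2 lower (Ltf and Retnlg), against 26.4% and 27.4% of all genes, with a median of 0.54 against 0.0032, but on the T cell scale only 6 rose and 24 fell, against 1.6% and 86.1% of all genes. Under TMM 8 called genes were beyond 1 and 0 beyond -1, against 5.17% and 7.28% of all genes.

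**Figure D1:**
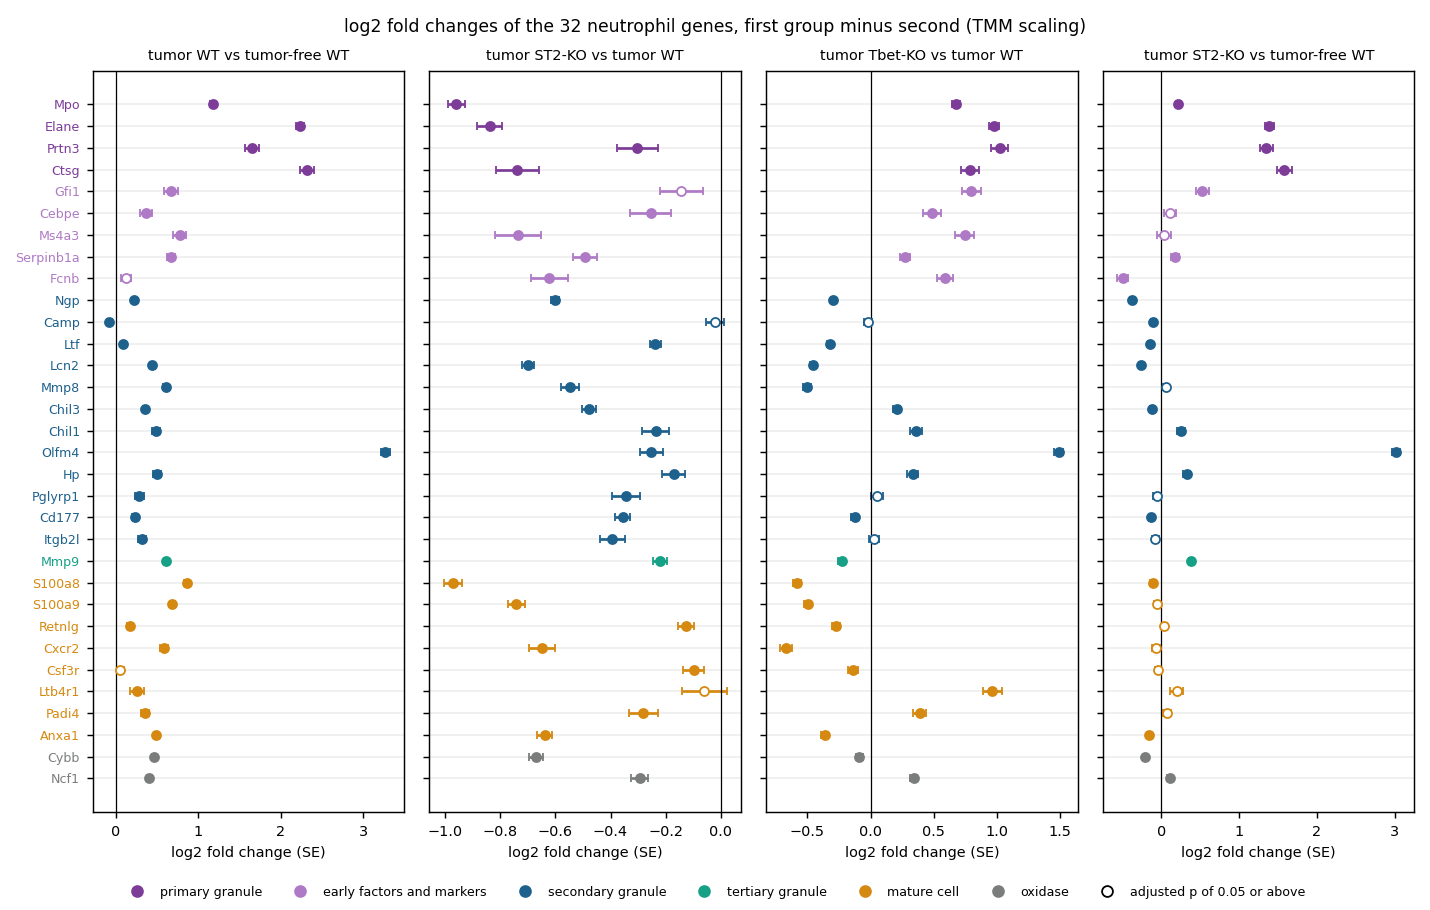
log2 fold change (x axis, TMM scaling) of each of the 32 genes (y axis, coloured by stage) in 4 comparisons, with the standard error; filled points passed an adjusted p of 0.05 in the edgeR test, and the x axes differ in range. The primary granule genes and Olfm4 lie farthest right in tumor WT against tumor-free WT. Genes of the mature cell lie on both sides of 0 in tumor Tbet-KO against tumor WT. Scaled to the T cell genes, 28 of 32 genes were lower in the first comparison and 29 higher in the second. In the third 15 were lower and 14 higher, and in the last 25 were lower. The shares of all genes on that scale were 86%, 84.1%, 36.6%, 7.58% and 63.5% in the same order.

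The primary granule genes had 1 order of levels in common: lowest in tumor-free WT, then tumor ST2-KO, then tumor WT, and highest in tumor Tbet-KO. All 4 were called in each of the 5 comparisons. Their median log2 fold change was 1.94 between the WT groups, -0.79 for ST2-KO and 0.88 for Tbet-KO against tumor WT. The shares of all genes called in those directions were 29%, 22.8% and 18.1%. On the scale of the T cell genes the medians were 0.59, 0.16 and 0.72. The direction turned for ST2-KO, where 2 genes were higher and 2 were not called, against 84.1% of all genes higher. Mpo, which encodes myeloperoxidase, had 252, 243 and 255 CPM in the 3 libraries of tumor-free WT and 578, 558 and 558 in tumor WT. It had 308, 293 and 271 CPM in tumor ST2-KO and 913, 891 and 902 in tumor Tbet-KO. The groups did not overlap, and ST2-KO lay close above tumor-free WT (log2 fold change 0.22, standard error 0.032, adjusted p = 4.7e-08). Mpo was 2.26-fold higher in tumor WT than in tumor-free WT (log2 fold change 1.18, standard error 0.031, adjusted p = 4.3e-50) and 1.60-fold higher in tumor Tbet-KO than in tumor WT (log2 fold change 0.68, standard error 0.029, adjusted p = 9.6e-35). In the libraries labelled ST2-KO it fell by 0.96 on the log2 scale against tumor WT, the largest fall of the 4 (standard error 0.031, adjusted p = 1.7e-43).

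Elane, the gene of neutrophil elastase, had 38.5, 42.4 and 38.01 CPM in tumor-free WT and 192, 183 and 184 in tumor WT. It had 100, 103 and 109 CPM in tumor ST2-KO and 367, 353 and 381 in tumor Tbet-KO. Every library of a group lay apart from those of the others, and the mean in tumor Tbet-KO was 3.52-fold that in tumor ST2-KO (log2 fold change 1.82, standard error 0.043, adjusted p = 1.5e-53). Prtn3, the gene of proteinase 3, had 19.9, 18.2 and 19.6 CPM in tumor-free WT and 59.6, 63.9 and 57.5 in tumor WT. It had 57.9, 41.5 and 47.2 CPM in tumor ST2-KO and 120.2, 120.2 and 127 in tumor Tbet-KO. Of the ST2-KO libraries 1 lay within the range of tumor WT, although the difference was called (log2 fold change -0.30, standard error 0.075, adjusted p = 0.00044). Ctsg, the gene of cathepsin G, had 10.2, 15.6 and 15.4 CPM in tumor-free WT and 66.4, 63.2 and 77.6 in tumor WT. It had 40.3, 44.2 and 39.7 CPM in tumor ST2-KO and 123.1, 122.6 and 111 in tumor Tbet-KO. It was the primary granule gene with the largest fold between the WT groups, 4.99-fold (log2 fold change 2.32, standard error 0.090, adjusted p = 2.0e-38). Scaled to the T cell genes, Elane, Prtn3 and Ctsg were still higher in tumor WT than in tumor-free WT, whereas Mpo was lower by 0.17 on the log2 scale, and all 4 were higher in tumor Tbet-KO than in tumor WT.

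**Figure D2:**
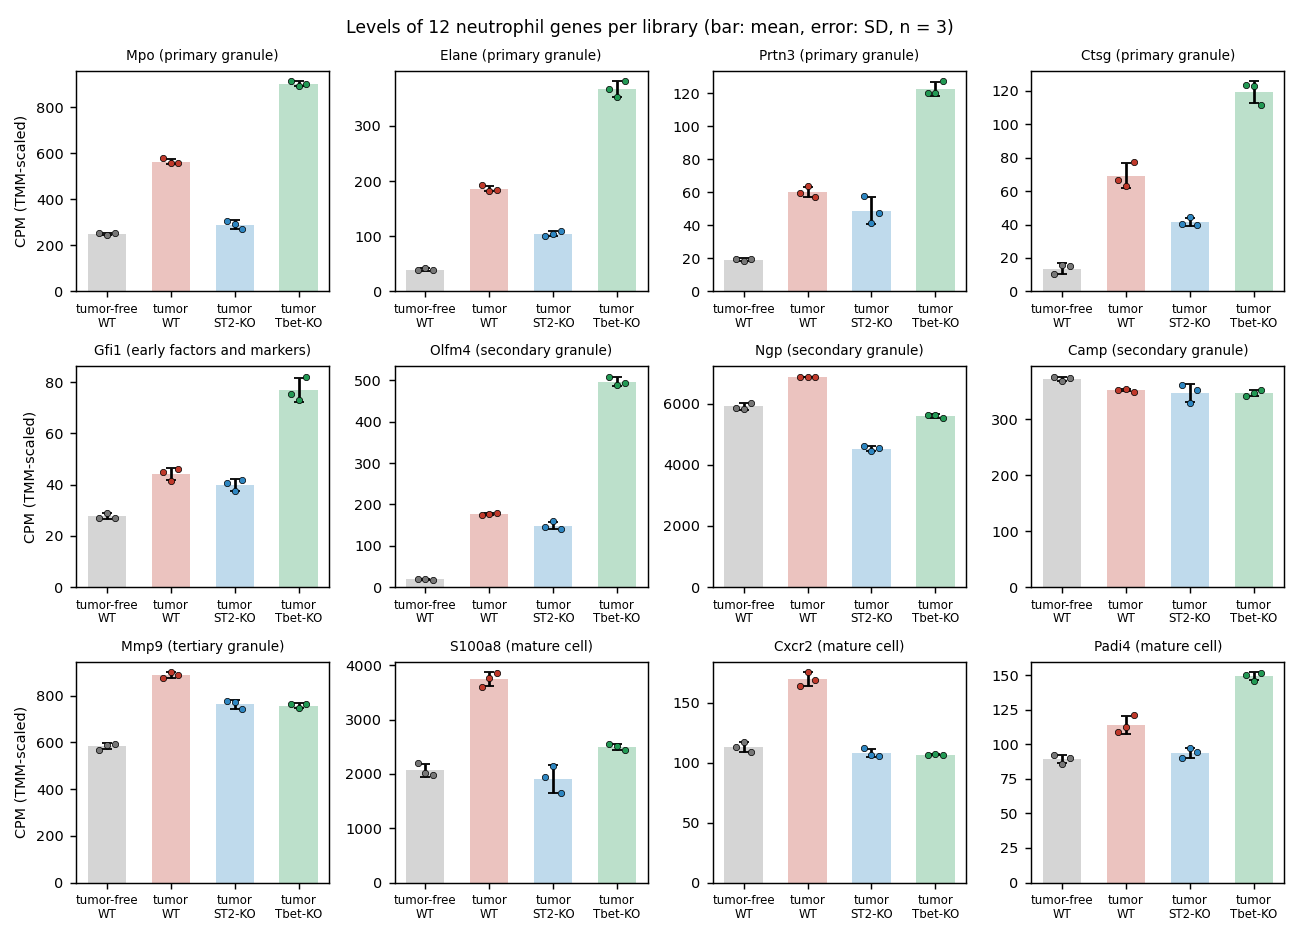
CPM after TMM (y axis, from 0) of 12 of the 32 genes in the 4 groups; points are libraries, bars the mean and error bars the SD (n = 3). The 4 primary granule genes, Gfi1 and Olfm4 are highest in tumor Tbet-KO. Ngp, Mmp9, S100a8 and Cxcr2 are highest in tumor WT, and Camp differs little between groups. Scaled to the T cell genes, 28 of the 32 were lower in tumor WT than in the control, where 86% of all genes were lower.

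The early factors and markers went the way of the primary granules in tumor Tbet-KO, where all 5 were higher than in tumor WT, with smaller folds between the other groups. The median log2 fold change was 0.67 between the WT groups (4 higher), -0.49 for ST2-KO (4 lower) and 0.59 for Tbet-KO (5 higher) against tumor WT. Over all genes these shares were 29% higher, 22.8% lower and 18.1% higher. Scaled to the T cell genes the medians were -0.68 (5 lower), 0.46 (5 higher) and 0.43 (4 higher). Over all genes 86% were lower, 84.1% higher and 7.58% higher on that scale. Gfi1 and Cebpe encode transcription factors that drive the neutrophil program, Gfi1 at the progenitor and Cebpe for the secondary granules. Gfi1 had 26.9, 29.1 and 27.1 CPM in tumor-free WT and 44.8, 41.6 and 45.9 in tumor WT. It had 40.5, 37.4 and 41.9 CPM in tumor ST2-KO and 75.4, 73.0 and 82.1 in tumor Tbet-KO, the largest rise of this stage in tumor Tbet-KO (log2 fold change 0.80, standard error 0.075, adjusted p = 1.2e-15). The libraries labelled ST2-KO overlapped those of tumor WT (log2 fold change -0.14, standard error 0.079, adjusted p = 0.138). Cebpe had 40.5, 39.7 and 38.9 CPM in tumor-free WT and 52.5, 46.9 and 53.7 in tumor WT. It had 44.8, 42.2 and 41.4 CPM in tumor ST2-KO and 68.8, 73.5 and 72.4 in tumor Tbet-KO, a rise of 0.49 from tumor WT to Tbet-KO on the log2 scale (standard error 0.071, adjusted p = 1.6e-08). Ms4a3, a membrane protein of granulocyte-monocyte progenitors, had 26.4, 27.7 and 26.8 CPM in tumor-free WT and 46.4, 45.5 and 46.6 in tumor WT. It had 28.2, 27.1 and 27.8 CPM in tumor ST2-KO and 83.4, 74.0 and 75.1 in tumor Tbet-KO. Its levels in tumor ST2-KO and tumor-free WT overlapped (log2 fold change 0.037, standard error 0.087, adjusted p = 0.797), and between the tumor WT and ST2-KO libraries it had the largest fall of this stage (log2 fold change -0.74, standard error 0.082, adjusted p = 1.5e-12). Serpinb1a, an inhibitor of the serine proteases of the primary granules, had 113 ± 6.14, 179 ± 3.46, 128 ± 5.77 and 217 ± 5.66 CPM (SD, n = 3) in tumor-free WT, tumor WT, tumor ST2-KO and tumor Tbet-KO. Fcnb, which encodes ficolin B, was not called between the WT groups. It had 68.2, 64.4 and 71.8 CPM in tumor-free WT and 74.5, 66.6 and 81.5 in tumor WT, which overlapped (log2 fold change 0.12, standard error 0.064, adjusted p = 0.0924). The difference was called in a fit of the 2 groups alone (adjusted p = 0.0459), with library sizes without technical genes (0.0437), without tumor WT replicate 2 (0.0162) and without the libraries labelled ST2-KO (0.0381, chosen after seeing the data). Fcnb was lower in tumor ST2-KO than in tumor-free WT (log2 fold change -0.50, standard error 0.068, adjusted p = 3.3e-09).

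The secondary granule genes divided into 3 sets in tumor Tbet-KO against tumor WT: Olfm4, Chil1, Hp and Chil3 were higher, Mmp8, Lcn2, Ltf, Ngp and Cd177 were lower, and Camp, Pglyrp1 and Itgb2l were not called. Over all genes 18.1% were higher and 20.6% lower. With the T cell genes as the scale, 3 of the 12 rose and 7 fell there, against 7.58% and 36.6% of all genes. Between the WT groups 11 were higher with a median of 0.33, against 29% of all genes. In ST2-KO against tumor WT 11 were lower with a median of -0.35, against 22.8%. Both directions turned with the T cell genes (11 lower and 12 higher), where 86% of all genes fell and 84.1% rose. Olfm4, the gene of olfactomedin 4, a granule protein of a subset of neutrophils, stood apart from the rest. It had 19.1, 18.5 and 17.4 CPM in tumor-free WT and 175, 177 and 179 in tumor WT. It had 145, 159 and 141 CPM in tumor ST2-KO and 509, 488 and 493 in tumor Tbet-KO. The groups did not overlap, and the mean of tumor WT was 9.65-fold that of tumor-free WT (log2 fold change 3.27, standard error 0.053, adjusted p = 2.5e-65), the largest fold of the 32 genes. Tumor Tbet-KO was 2.81-fold above tumor WT (log2 fold change 1.49, standard error 0.038, adjusted p = 5.9e-51), and tumor ST2-KO was 8.11-fold above tumor-free WT (log2 fold change 3.02, standard error 0.055, adjusted p = 6.0e-61). The other genes that were higher in tumor Tbet-KO than in tumor WT moved less. Chil1 and Chil3, chitinase-like proteins, had log2 fold changes of 0.36 (adjusted p = 1.9e-09) and 0.21 (adjusted p = 2.3e-11), and Hp, which encodes haptoglobin, 0.33 (adjusted p = 9.3e-11).

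Ngp, which encodes neutrophilic granule protein, a relative of the cathelicidins, had the highest counts of the 32 genes. It had 5876, 5837 and 6035 CPM in tumor-free WT and 6879.9, 6890.5 and 6874 in tumor WT. It had 4616, 4445 and 4546 CPM in tumor ST2-KO and 5638, 5631 and 5525 in tumor Tbet-KO. No groups overlapped, and tumor Tbet-KO lay below both WT groups and above tumor ST2-KO (log2 fold change -0.30, standard error 0.016, adjusted p = 1.1e-29 against tumor WT). Camp, the cathelicidin itself, hardly differed. It had 376, 368 and 374 CPM in tumor-free WT and 353, 354 and 349.6 in tumor WT. It had 361, 329 and 352 CPM in tumor ST2-KO and 342, 347 and 352 in tumor Tbet-KO, and it was the gene of the 32 called lower in tumor WT than in tumor-free WT (log2 fold change -0.081, standard error 0.032, adjusted p = 0.0227). Its call rests on a difference of 373 against 352 CPM and was lost without tumor-free WT replicate 1 (adjusted p = 0.0577), tumor-free WT replicate 3 (0.0518) or tumor WT replicate 3 (0.0626).

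Ltf and Lcn2 encode lactoferrin and lipocalin 2, which bind iron and iron-loaded siderophores. Ltf had 2310.0, 2299.9 and 2332 CPM in tumor-free WT and 2490.5, 2419.6 and 2466 in tumor WT. It had 2057, 2102 and 2100.1 CPM in tumor ST2-KO and 1942, 1981 and 1969 in tumor Tbet-KO, so that Tbet-KO was the lowest group, also against tumor ST2-KO (log2 fold change -0.087, standard error 0.019, adjusted p = 5.4e-05). Lcn2 had 1217, 1251 and 1239 CPM in tumor-free WT and 1689.7, 1654 and 1675 in tumor WT. It had 1035, 1039 and 1018 CPM in tumor ST2-KO and 1232, 1203 and 1217 in tumor Tbet-KO, with the largest fall of this stage in tumor ST2-KO (log2 fold change -0.70, standard error 0.022, adjusted p = 9.6e-45). Tumor WT was apart from and above the other 3 groups for both genes. Mmp8, neutrophil collagenase, had 298 ± 9.80, 454 ± 5.93, 310.5 ± 6.21 and 320.4 ± 8.45 CPM (SD, n = 3) in tumor-free WT, tumor WT, tumor ST2-KO and tumor Tbet-KO, and it fell by 0.50 on the log2 scale from tumor WT to tumor Tbet-KO, the largest fall of this stage there (standard error 0.031, adjusted p = 6.9e-25). The remaining 3 genes, which encode a peptidoglycan-binding protein (Pglyrp1), a surface glycoprotein of neutrophils (Cd177) and an integrin beta chain of maturing neutrophils (Itgb2l), were higher in tumor WT than in tumor-free WT and lower in tumor ST2-KO than in tumor WT. Pglyrp1 had 109 ± 3.61, 133 ± 6.99, 105 ± 4.95 and 138 ± 7.56 CPM (SD, n = 3) in the same order of groups, and Itgb2l 147 ± 6.24, 183 ± 2.47, 139 ± 9.53 and 186 ± 7.51 CPM. Both overlapped between tumor Tbet-KO and tumor WT. Cd177 had 478 ± 10.8, 559.5 ± 11.3, 437 ± 4.14 and 513 ± 3.44 CPM (SD, n = 3), a small difference between tumor Tbet-KO and tumor WT (log2 fold change -0.13, standard error 0.028, adjusted p = 9.7e-05).

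Mmp9, the gelatinase of the tertiary granules, had 569.6, 591 and 595 CPM in tumor-free WT and 877, 901 and 889.6 in tumor WT. It had 777, 772 and 742 CPM in tumor ST2-KO and 763, 748 and 764 in tumor Tbet-KO. The last 2 groups overlapped (log2 fold change -0.0099, standard error 0.025, adjusted p = 0.769), both were below tumor WT, and ST2-KO was above tumor-free WT (log2 fold change 0.38, standard error 0.026, adjusted p = 1.0e-22). With the T cell genes as the scale, Mmp9 was lower in tumor WT than in tumor-free WT and higher in ST2-KO than in tumor WT.

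Of the genes of the mature cell, 7 of 8 were higher in tumor WT than in tumor-free WT, against 29% of all genes. In tumor ST2-KO 7 of 8 were lower than in tumor WT, against 22.8%, and in tumor Tbet-KO 6 of 8, against 20.6%. The T cell genes as the scale turned the first 2 directions, with 8 lower and 7 higher, and left the last with 6 lower. On that scale 86% of all genes were lower, 84.1% higher and 36.6% lower in the same order. The first 2 counts there were therefore near the shares of all genes. Cxcr2, the chemokine receptor by which mature neutrophils leave the marrow, had 113, 117 and 109 CPM in tumor-free WT and 164, 175 and 169 in tumor WT. It had 112, 107 and 105 CPM in tumor ST2-KO and 107, 107 and 106 in tumor Tbet-KO. Tumor WT was above the other 3 groups, which lay between 105 and 117 CPM, and its fall from tumor WT to tumor Tbet-KO was the largest of the 32 genes in that comparison (log2 fold change -0.67, standard error 0.047, adjusted p = 5.2e-22). S100a8 and S100a9 encode the chains of calprotectin, the main protein of the neutrophil cytosol. S100a8 had 2204, 2018 and 1973 CPM in tumor-free WT and 3610.2, 3769 and 3861 in tumor WT. It had 1948, 2139 and 1641 CPM in tumor ST2-KO and 2547, 2522 and 2442 in tumor Tbet-KO. Its fall from tumor WT to tumor ST2-KO was the largest of the 32 genes in that comparison (log2 fold change -0.97, standard error 0.034, adjusted p = 1.4e-41), and the 3 ST2-KO libraries were spread more widely than those of the other groups. Against tumor-free WT the groups overlapped and the call (log2 fold change -0.11, standard error 0.033, adjusted p = 0.0054) was lost with DESeq2 (adjusted p = 0.390), with limma (0.244), in a fit of the 2 groups alone (0.138), without tumor-free WT replicate 1 (0.193) and without tumor ST2-KO replicate 3 (0.645).

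S100a9 had 1286, 1223 and 1206 CPM in tumor-free WT and 1976, 1907 and 2080.4 in tumor WT. It had 1098, 1329.6 and 1139.5 CPM in tumor ST2-KO and 1397, 1406 and 1422 in tumor Tbet-KO, the pattern of S100a8 with smaller folds. Retnlg, a resistin-like protein of mature neutrophils, had 463 ± 6.47, 519 ± 9.46, 476 ± 20.5 and 429.8 ± 9.04 CPM (SD, n = 3) in tumor-free WT, tumor WT, tumor ST2-KO and tumor Tbet-KO. It was lowest in tumor Tbet-KO, also against tumor ST2-KO (log2 fold change -0.15, standard error 0.030, adjusted p = 1.6e-05). Csf3r, the receptor of G-CSF, had 208 ± 6.91, 216 ± 2.42, 202 ± 2.91 and 196 ± 8.90 CPM (SD, n = 3) in the same order. It was called neither between the WT groups (log2 fold change 0.055, standard error 0.038, adjusted p = 0.222) nor between tumor Tbet-KO and tumor ST2-KO (log2 fold change -0.040, standard error 0.039, adjusted p = 0.401). Its lower level in tumor ST2-KO than in tumor WT (log2 fold change -0.099, standard error 0.039, adjusted p = 0.0309) was lost with limma (adjusted p = 0.0519), without tumor WT replicate 1 (0.0522), 2 (0.0918) or 3 (0.0573) and without tumor ST2-KO replicate 2 (0.0571) or 3 (0.0734), and that in tumor Tbet-KO (log2 fold change -0.14, standard error 0.038, adjusted p = 0.0022) without tumor Tbet-KO replicate 2 (0.0617). Anxa1, a calcium-binding protein of neutrophil granules and other leukocytes, had 569 ± 15.1, 796 ± 6.67, 511 ± 19.3 and 618.5 ± 2.68 CPM (SD, n = 3), again with tumor WT as the highest group.

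Ltb4r1 and Padi4 went against their stage in tumor Tbet-KO. Ltb4r1, the receptor of leukotriene B4, which is also expressed by other leukocytes, had 34.2, 35.1 and 34.8 CPM in tumor-free WT and 41.2, 44.1 and 39.2 in tumor WT. It had 41.3, 43.5 and 34.7 CPM in tumor ST2-KO and 74.9, 81.2 and 86.9 in tumor Tbet-KO. The last group lay apart and above the rest, 1.95-fold above tumor WT (log2 fold change 0.96, standard error 0.076, adjusted p = 3.7e-19), while the first 3 lay within 34.2 to 44.1 CPM. Padi4, the enzyme that citrullinates histones in neutrophil extracellular traps, had 92.0, 85.8 and 90.2 CPM in tumor-free WT and 109, 112 and 121 in tumor WT. It had 89.9, 97.0 and 94.3 CPM in tumor ST2-KO and 150.2, 146 and 151 in tumor Tbet-KO, again highest in the last (log2 fold change 0.39, standard error 0.049, adjusted p = 1.9e-10). The oxidase subunits also parted. Cybb, the membrane subunit, which macrophages and other phagocytes share, had 609 ± 17.7, 838 ± 11.3, 527 ± 17.9 and 789 ± 4.47 CPM (SD, n = 3) in tumor-free WT, tumor WT, tumor ST2-KO and tumor Tbet-KO, and the last was slightly below tumor WT (log2 fold change -0.088, standard error 0.026, adjusted p = 0.0043). Ncf1, a cytosolic subunit, had 319 ± 4.21, 421 ± 8.87, 344 ± 4.61 and 534 ± 3.01 CPM (SD, n = 3) and was highest in tumor Tbet-KO (log2 fold change 0.34, standard error 0.029, adjusted p = 9.1e-18).

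Over the 32 genes, the group with the highest mean was tumor Tbet-KO for 18, tumor WT for 13 and tumor-free WT for 1 (Camp), and the lowest was tumor-free WT for 16, tumor ST2-KO for 11 and tumor Tbet-KO for 5 (Camp, Ltf, Retnlg, Cxcr2 and Csf3r). These ranks use means alone and were not counted over all genes or on the T cell scale. The highest group was not called against the next for Pglyrp1, Itgb2l and Csf3r. The lowest group was not called against the next for Cebpe, Ms4a3, Mmp8, Ltb4r1 and Padi4 (tumor-free WT lowest). Nor was it for Pglyrp1, Itgb2l and S100a9 (tumor ST2-KO lowest) or for Camp, Cxcr2 and Csf3r (tumor Tbet-KO lowest). For Camp the means of Tbet-KO and ST2-KO, 347 and 347 CPM, were closer than their spread. Per length, in FPKM (fragments per kilobase, scaled to depth), S100a8 had the highest level of the list in tumor WT, 9553 ± 316 FPKM (SD, n = 3), ahead of Ngp with 5925 ± 8.85, and these 2 were also the highest in the other 3 groups. In tumor-free WT these 2 genes had 5276 ± 316 and 5104 ± 89.4 FPKM, closer than the spread of S100a8. Elane went from 43.3 ± 2.62 FPKM in tumor-free WT to 399 ± 15.3 in tumor Tbet-KO, and passed Mpo there (354 ± 4.50 FPKM), which it did not in tumor-free WT (98.4 ± 2.36). Olfm4 had 11.3 ± 0.517 FPKM in tumor-free WT and 303 ± 6.80 in tumor Tbet-KO. Gfi1, a transcription factor, was the lowest gene in all 4 groups, from 8.97 ± 0.387 to 24.8 ± 1.52 FPKM.

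Ratios between genes of 1 library do not depend on how libraries are scaled. The reads of Elane per 100 reads of Ngp were 0.670 ± 0.0501 (SD, n = 3) in tumor-free WT, 2.71 ± 0.0768 in tumor WT, 2.30 ± 0.118 in tumor ST2-KO and 6.55 ± 0.318 in tumor Tbet-KO. All 4 groups lay apart from each other, with the order that the primary granule genes had in CPM. Mpo per 100 Ngp reads gave 4.23 ± 0.0595, 8.20 ± 0.168, 6.40 ± 0.391 and 16.1 ± 0.267 in the same order of groups. Olfm4 per 100 Ngp reads gave 0.310 ± 0.0189, 2.57 ± 0.0261, 3.28 ± 0.261 and 8.87 ± 0.186, so tumor ST2-KO lay above tumor WT in this ratio. Set against Cxcr2, a gene of the mature cell, Mpo reads per 100 Cxcr2 reads were 221 ± 13.1, 333 ± 17.5, 269 ± 10.5 and 845 ± 14.7, again with no overlap between groups. The later genes had narrower ranges and other orders. Ltf per 100 Ngp reads ranged from 35.1 ± 0.611 in tumor Tbet-KO to 46.02 ± 1.37 in tumor ST2-KO, S100a8 from 34.9 ± 2.43 in tumor-free WT to 54.4 ± 1.86 in tumor WT, and Cxcr2 from 1.91 ± 0.0153 in tumor Tbet-KO to 2.46 ± 0.0817 in tumor WT. For Cxcr2 the libraries of tumor WT and ST2-KO overlapped, as did those of Tbet-KO and tumor-free WT.

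**Figure D3:**
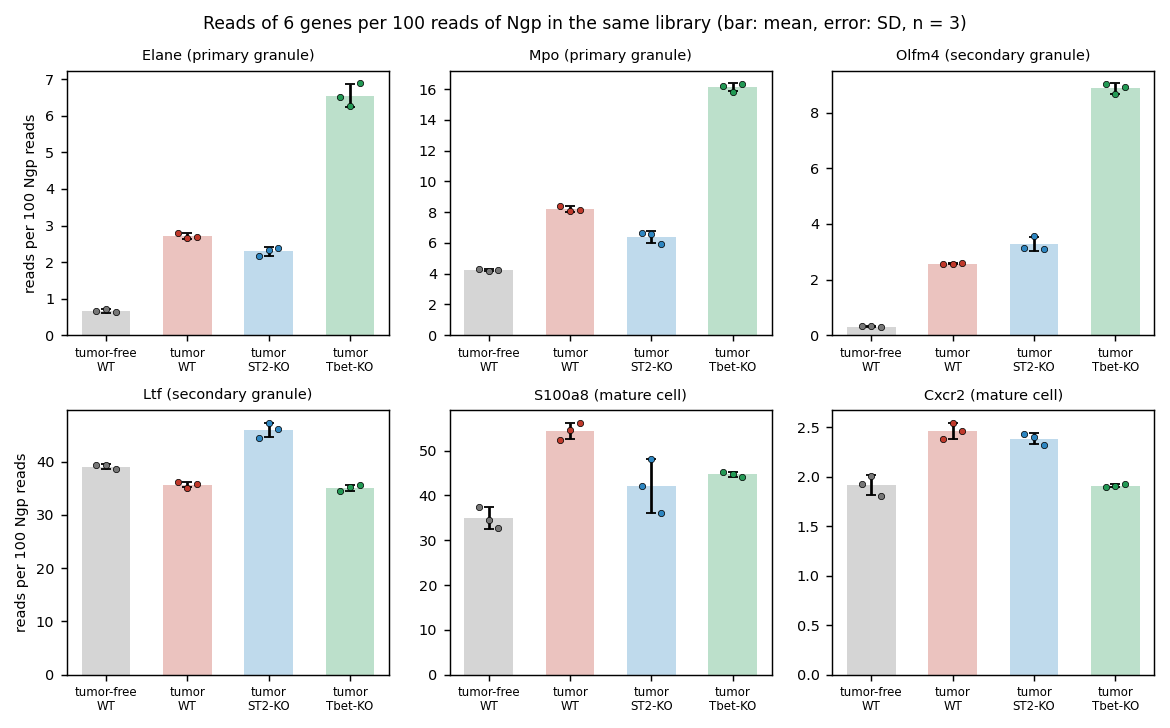
Reads of 6 genes per 100 reads of Ngp in the same library (y axis, from 0), which no scaling of libraries changes; points are libraries, bars the mean and error bars the SD (n = 3). Elane, Mpo and Olfm4 are highest in tumor Tbet-KO, at 6.55, 16.1 and 8.87 reads, and lowest in tumor-free WT, while Ltf, S100a8 and Cxcr2 do not follow that order.

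Shares of the summed level within a library are also free of the scaling, but each sum follows its highest genes. In tumor WT, Mpo had 564 of the 880 CPM of the primary granule genes, and Ngp 6882 of the 14033 of the secondary granule genes. S100a8 and S100a9 had 3747 and 1988 of the 7590 CPM of the genes of the mature cell there. The primary granule genes made up 1.73% ± 0.0270 of the summed CPM of the 32 genes in tumor-free WT (SD, n = 3), 3.51% ± 0.0663 in tumor WT, 2.86% ± 0.0962 in tumor ST2-KO and 6.93% ± 0.0936 in tumor Tbet-KO. The early factors and markers made up 1.48% ± 0.0202, 1.58% ± 0.0337, 1.69% ± 0.00510 and 2.54% ± 0.0164 in the same order. The share in tumor Tbet-KO lay above every library of the other groups for both stages. The secondary granule genes made up 63.1% ± 0.707 in tumor-free WT, 56.0% ± 0.427 in tumor WT, 59.1% ± 1.45 in tumor ST2-KO and 55.8% ± 0.153 in tumor Tbet-KO. Genes of the mature cell had their largest share, 30.3% ± 0.506, in tumor WT and 25.2% ± 0.0589 in tumor Tbet-KO, near the 25.6% ± 0.731 of tumor-free WT.

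**Figure D4:**
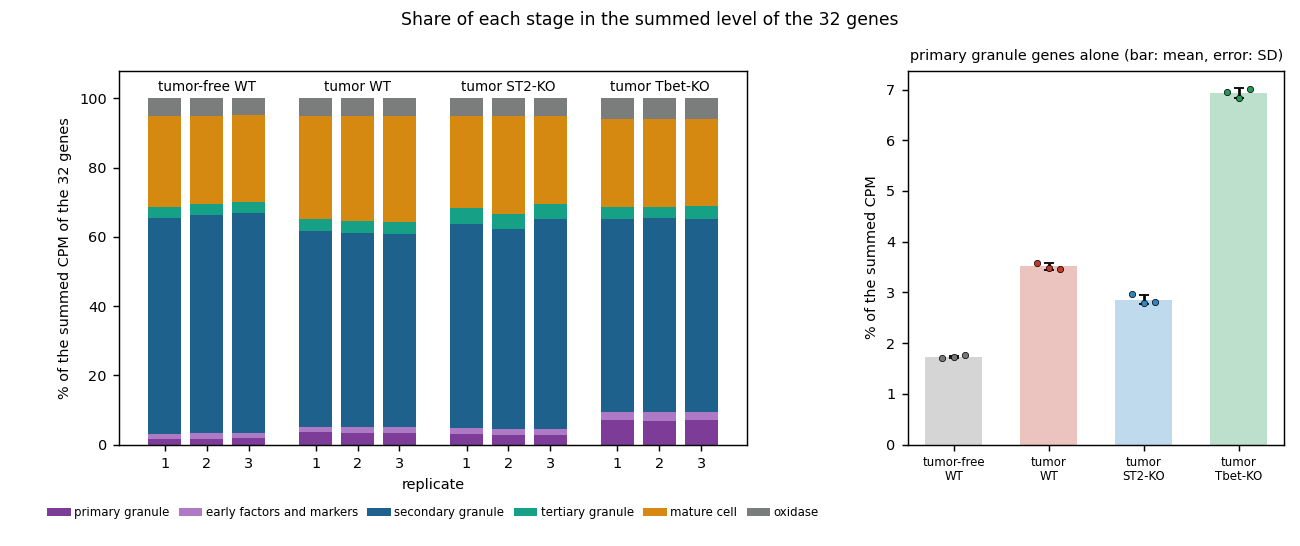
Share of each stage in the summed CPM of the 32 genes (y axis, %) in each of the 12 libraries (left), and the share of the 4 primary granule genes alone by group (right; points are libraries, bars the mean, error bars the SD, n = 3). The primary granule share is lowest in tumor-free WT, 1.73%, and highest in tumor Tbet-KO, 6.93%, and shares within a library do not change with the scaling of libraries.

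A second list of 57 neutrophil genes outside the 32 was counted in the same way, and 54 of them were tested. Between the WT groups, 44 were higher and 0 lower in tumor WT, with a median of 0.44, where 29% and 29.4% of all genes were called. On the T cell scale 5 rose and 46 fell, against 2% and 86% of all genes. The count of lower genes was also 0 at an unadjusted p below 0.05, with DESeq2 and with limma. In tumor ST2-KO against tumor WT, 0 were higher (1 at an unadjusted p below 0.05, 0 with DESeq2 and 0 with limma) and 37 lower, against 23.1% and 22.8% of all genes. On the T cell scale 45 rose and 0 fell, against 84.1% and 0.668%. In tumor Tbet-KO against tumor WT, 20 were higher and 18 lower, with a median of -0.0035, against 18.1% and 20.6% of all genes. On the T cell scale 12 rose and 25 fell, against 7.58% and 36.6%. Ly6g, the common surface marker of mouse neutrophils, was not analysed here.

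Some genes of this second list moved more than any of the 32. Stfa1, Stfa2 and Stfa3 encode stefins, cysteine protease inhibitors of myeloid cells, and as near-identical copies they may share reads. Stfa1 had 1.46 to 2.06 CPM in tumor-free WT, 46.5 to 52.3 in tumor WT, 36.0 to 37.1 in tumor ST2-KO and 129 to 137 in tumor Tbet-KO (log2 fold change 4.86, standard error 0.12, adjusted p = 9.5e-52 between the WT groups). Stfa2 had 1.94 to 2.19, 48.6 to 58.1, 51.1 to 58.2 and 160.0 to 185 CPM in the same order (log2 fold change 4.67, standard error 0.12, adjusted p = 1.5e-51), and tumor ST2-KO against tumor WT was not called (log2 fold change 0.054, standard error 0.070, adjusted p = 0.559). For both, as for Olfm4, the step between tumor-free WT and the tumor groups was wider than those among the tumor groups. Stfa3, with 4 to 10 counts per library in tumor-free WT and 214 to 252 in tumor Tbet-KO, had a log2 fold change of 3.41 between the WT groups (adjusted p = 5.7e-16). Bpi, a bactericidal protein of the primary granules, had 0 counts in all 3 libraries of tumor-free WT, 0 to 6 in tumor WT, 0 to 2 in tumor ST2-KO and 13 to 20 in tumor Tbet-KO, levels too low for a fold. Cxcr1, a receptor related to Cxcr2, had 4 to 14, 2 to 8, 5 to 11 and 27 to 41 counts per library and was higher in tumor Tbet-KO than in tumor WT (log2 fold change 2.89, standard error 0.63, adjusted p = 8.4e-05), the opposite of Cxcr2. Prss57, a serine protease of the primary granules, had 7.497 ± 0.438, 27.1 ± 0.550, 18.6 ± 3.22 and 47.3 ± 0.918 CPM (SD, n = 3) in tumor-free WT, tumor WT, tumor ST2-KO and tumor Tbet-KO, the order of the 4 primary granule genes (log2 fold change 1.86, standard error 0.12, adjusted p = 2.5e-24 between the WT groups).

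Markers of other cells moved between the groups as well. A list of 6 target genes of MLL fusions and progenitor genes (Hoxa9, Hoxa10, Meis1, Kit, Cd34 and Flt3) had summed levels of 65.0 to 68.2 CPM in tumor-free WT, 189 to 202 in tumor WT, 170.4 to 177 in tumor ST2-KO and 340.4 to 357 in tumor Tbet-KO, and all 6 were higher in tumor Tbet-KO than in tumor WT. In tumor ST2-KO against tumor WT, 1 was higher (Hoxa10), 2 lower (Kit and Flt3) and 3 not called, with a median of -0.18, where the primary granule genes were all lower. The call of Hoxa10 was lost with DESeq2 and with limma, which each gave 0 higher and 2 lower. All 6 were also higher in tumor WT than in tumor-free WT, against 29% of all genes. On the T cell scale 5 rose and 1 fell, against 2% and 86%. Hoxa9 had 1.09 to 1.38 CPM in tumor-free WT, 17.6 to 19.3 in tumor WT, 17.3 to 19.0 in tumor ST2-KO and 39.6 to 44.7 in tumor Tbet-KO, and Hoxa10 had 0 to 3 counts in tumor-free WT and 192 to 260 in tumor Tbet-KO. Their part in the levels of the primary granule genes was not tested. The 10 tested T cell and Treg genes summed to 924 to 939 CPM in tumor-free WT, 2117 to 2138 in tumor WT, 1367 to 1390.4 in tumor ST2-KO and 2011 to 2034 in tumor Tbet-KO, and the 10 monocyte and macrophage genes to 532 to 544, 1074 to 1104, 645 to 657 and 975 to 996 CPM. In tumor Tbet-KO against tumor WT, 5 of these T cell and Treg genes were higher and 5 lower, and the 11 T cell genes of the scale summed to 1662 to 1722 CPM in tumor Tbet-KO and 1485 to 1527 in tumor WT. The 6 genes of eosinophils, basophils and mast cells summed to 663 to 685, 420.1 to 436, 372 to 407 and 1234 to 1271 CPM, and the 7 B cell genes to 2125 to 2186, 604 to 615, 1489 to 1538 and 52.5 to 58.4 CPM. No gene of these 5 lists was at 0 in all libraries of a group, and their part in the neutrophil results was not tested.

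**Figure D5:**
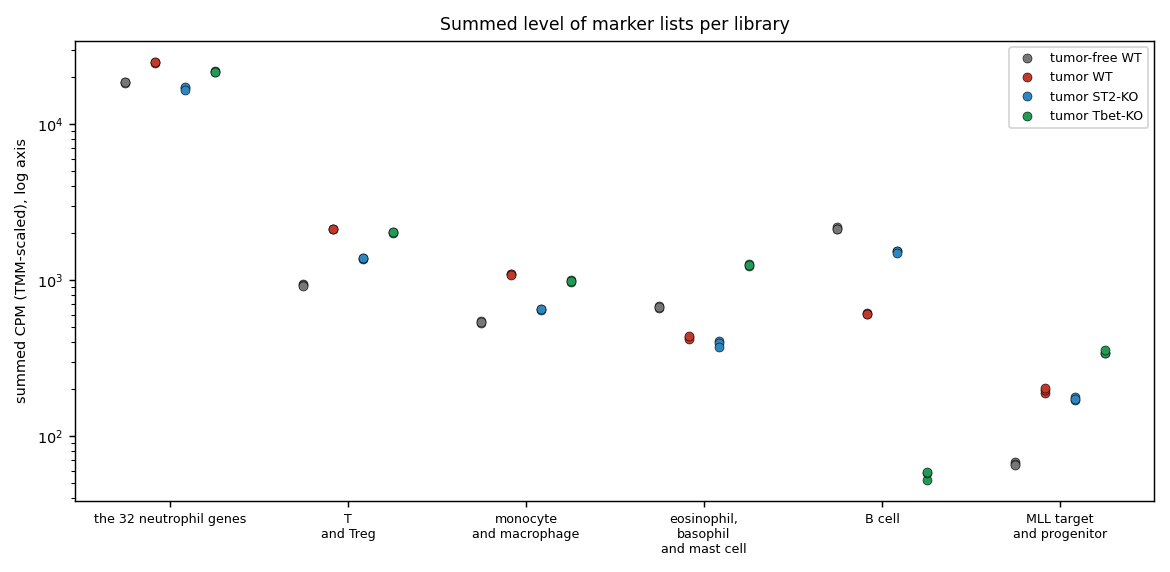
Summed CPM after TMM (y axis, log scale) of the 32 neutrophil genes and of 5 marker lists in each library, with 1 point per library and colours for the 4 groups. The summed MLL target and progenitor genes are lowest in tumor-free WT and highest in tumor Tbet-KO. They had 170.4 to 177 CPM in tumor ST2-KO and 189 to 202 in tumor WT, and 3 of the 6 were not called between those 2 groups. The 32 genes together are highest in tumor WT. Scaled to the T cell genes, 28 of the 32 were lower in tumor WT than in tumor-free WT, where 86% of all genes were lower.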

How the data were processed

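RNA of sorted Treg cells was sequenced in 12 libraries after removal of ribosomal RNA. Reads were mapped by the authors to mm10 (STAR) and counted per gene with featureCounts and the UCSC refGene annotation. The deposited raw counts per gene were the input of the tests. The authors also deposited log2 FPKM values with a prior count of 2, which were reversed to FPKM to compare genes. Gene identity was taken from the symbol column, and all value columns matched a sample.

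Counts were tested with edgeR 4.0.16 in R 4.3.3 (TMM, filterByExpr, quasi-likelihood fit of all 4 groups, Benjamini-Hochberg over 13782 genes, called at an adjusted p below 0.05), and CPM are scaled by TMM. The fit was tested on simulated data. Alternatives were RLE size factors, DESeq2 1.42.0, limma 3.58.1 on log2 FPKM, other filters, a replicate block, the 2 groups alone, T cell genes or non-technical genes as the scale, and leaving out each library. Promoters came from RefSeq and gene positions from GENCODE M21. The 32 genes and the lists were chosen with earlier results of these data known. All 32 genes are described by stage; full statistics are given for the largest called change in each direction per stage and for genes that go against their stage, and of the second list up to 6 genes by fold are named. Protein sequences were not used here, and 1 gene of the T cell scale is not reported by name here. Counts of 13272943 to 18042521 per library set the precision, and replicate libraries differed by more than sampling noise (chi-square per degree of freedom 2.26 to 4.93), so none was counted as a duplicate.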

Additional observations from a re-analysis of the deposited data

How the results depend on the processing

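Reads were counted per gene, so the tests do not show which cells held the transcripts, and with 3 libraries a group and no statement of separate mice the p-values measure the spread between libraries. Each result is 1 gene in 1 comparison, 160 in all. With RLE size factors, no filter on low counts, the stricter filter (CPM of 1 in 3 libraries) and the replicate block, 160 of 160 kept their call. Called results also kept their direction, which was not compared for results called in neither fit. The replicate block gave the same counts of genes higher as the fit without it, 29, 0, 16, 25 and 11 in the 5 comparisons. Correlations between the deviations of libraries with the same number were -0.020 to 0.021. They show no pairing by number, but with 3 libraries a group they cannot exclude one. DESeq2 lost 1 call, limma on log2 FPKM 2, a fit of the 2 groups alone lost 2 and gained 1, and library sizes without ribosomal, mitochondrial and hemoglobin genes lost 2 and gained 3, Fcnb between the WT groups among them. Leaving out 1 library lost at most 2 and gained at most 1. The number of genes lower in tumor WT than in tumor-free WT, 1 (Camp), was 0 without those technical genes and ranged from 0 to 1 over the libraries left out. A fit without the libraries labelled ST2-KO, chosen after seeing the data, gave the same call for 63 of 64 and gained 1. The cause of these changes was not tested.

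Asking also for a log2 fold change beyond 1 left 5 genes higher and 0 lower in tumor WT against tumor-free WT, 0 higher and 0 lower in tumor ST2-KO against tumor WT, 2 and 0 in tumor Tbet-KO against tumor WT, 8 and 0 in tumor Tbet-KO against tumor ST2-KO, and 4 and 0 in tumor ST2-KO against tumor-free WT. The shares of all genes higher and lower past that fold were 8.85% and 4.96%, 2.66% and 2.42%, 2.09% and 5.24%, 5.17% and 7.28%, and 3.79% and 0.951% in the same order. Scaled to the 11 T cell genes, the counts of higher and lower genes were 4 and 28, 29 and 0, 14 and 15, 6 and 24, and 4 and 25 in these comparisons. The shares of all genes were 2% and 86%, 84.1% and 0.668%, 7.58% and 36.6%, 1.6% and 86.1%, and 4.63% and 63.5%. On this scale the T cell genes are level by construction, and 89 of the 160 directions turned. Not called on it by edgeR were the turned values of Elane in ST2-KO against tumor WT (adjusted p = 0.053) and Ltb4r1 in Tbet-KO against ST2-KO (0.315). Nor were those of Hp (0.172) and Mmp9 (0.695) in ST2-KO against tumor-free WT. For tumor WT against tumor-free WT, the log2 fold changes that turned became Mpo -0.17, Gfi1 -0.68, Cebpe -0.99, Ms4a3 -0.58, Serpinb1a -0.68, Fcnb -1.23, Ngp -1.13, Ltf -1.26, Lcn2 -0.91, Mmp8 -0.74, Chil3 -0.99, Chil1 -0.86, Hp -0.85, Pglyrp1 -1.07, Cd177 -1.12, Itgb2l -1.03, Mmp9 -0.74, S100a8 -0.49, S100a9 -0.67, Retnlg -1.18, Cxcr2 -0.76, Csf3r -1.29, Ltb4r1 -1.09, Padi4 -0.996, Anxa1 -0.87, Cybb -0.89 and Ncf1 -0.95. For tumor ST2-KO against tumor WT, the log2 fold changes that turned became Elane 0.11, Prtn3 0.65, Ctsg 0.21, Gfi1 0.81, Cebpe 0.69, Ms4a3 0.21, Serpinb1a 0.46, Fcnb 0.33, Ngp 0.35, Camp 0.93, Ltf 0.71, Lcn2 0.25, Mmp8 0.40, Chil3 0.47, Chil1 0.71, Olfm4 0.70, Hp 0.77, Pglyrp1 0.60, Cd177 0.59, Itgb2l 0.56, Mmp9 0.73, S100a9 0.20, Retnlg 0.82, Cxcr2 0.30, Csf3r 0.85, Ltb4r1 0.89, Padi4 0.67, Anxa1 0.31, Cybb 0.28 and Ncf1 0.65. For tumor Tbet-KO against tumor WT, the log2 fold changes that turned became Itgb2l -0.14. For tumor Tbet-KO against tumor ST2-KO, the log2 fold changes that turned became Gfi1 -0.17, Cebpe -0.37, Serpinb1a -0.35, Ngp -0.81, Lcn2 -0.87, Mmp8 -1.07, Chil3 -0.43, Chil1 -0.52, Hp -0.61, Pglyrp1 -0.71, Cd177 -0.88, Itgb2l -0.69, S100a8 -0.72, S100a9 -0.87, Ltb4r1 -0.088, Padi4 -0.44, Anxa1 -0.84, Cybb -0.53 and Ncf1 -0.47. For tumor ST2-KO against tumor-free WT, the log2 fold changes that turned became Mpo -0.18, Cebpe -0.29, Ms4a3 -0.36, Serpinb1a -0.23, Mmp8 -0.34, Chil1 -0.15, Hp -0.077, Mmp9 -0.017, Retnlg -0.36, Ltb4r1 -0.20, Padi4 -0.33 and Ncf1 -0.29.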
